A study of Mus musculus with 6 samples.

Results

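Genes of cholesterol, fatty acid and myelin lipid synthesis were followed in the corpus callosum, the tract of axons that joins the cortical hemispheres, on postnatal day 4. The 34 genes were chosen by symbol from the deposited transcript tables, which hold 24411 genes, and all 34 are listed there. Of them 20 had enough counts to be tested between the genotypes. RNA was sequenced from 3 WT libraries and 3 libraries of a Mettl14 conditional knockout (cKO). Mettl14 is a subunit of the enzyme complex that places N6-methyladenosine on RNA, and the series asks how that mark bears on the movement of mRNA from neuronal cell bodies into neurites. The labels describe B6 mice and tissue dissected by hand from frozen sections 60 µm thick. They give the genotypes as WT and Mettl14 cKO, and the driver of the deletion is not given in the sources used here. Whether the libraries stem from different animals is not stated, so the p-values reflect no more than library-to-library spread, which may be technical.

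Cholesterol is built from acetyl-CoA through mevalonate, farnesyl diphosphate and squalene, and lanosterol is then trimmed to cholesterol in a chain of reductions and demethylations. The SREBP transcription factors, held in the endoplasmic reticulum by Insig proteins when sterols are plentiful, switch on these genes and those of fatty acid synthesis. Brain makes its own cholesterol, and oligodendrocytes use large amounts of it, with very long fatty acids and galactolipids, to build myelin.

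Total expected counts were 670462 to 1268430 per library, and a library with a count of 0 may still hold up to 3 counts, or 2.41 to 4.24 CPM (counts scaled to the library's total). Such limits cover counting error only. The labels' tissue was checked by marker genes fixed in lists. In the WT libraries 12 myelinating oligodendrocyte markers summed to 1590 to 2487 TPM (a level scaled to transcript length and library total), against 2.03 to 7.56 TPM in cKO, where 7 of the 12 were at 0 in every library. Of these, Myrf, Enpp6, Mag, Mog and Cldn11 had counts in WT, and Mobp and Ermn were at 0 there too. The 7 oligodendrocyte precursor markers summed to 1319 to 1661 TPM in WT and to 619, 411 and 2.85 TPM in cKO replicates 1 to 3. Olig1, the highest of them, held 615, 404 and 0 TPM of that in cKO, while Sox10, Gpr17 and Matn4 were at 0 in every cKO library. The summed astrocyte markers were 8271 to 8995 TPM in WT and 2145 to 3621 in cKO. Most of that was Apoe, with a mean of 6667 TPM in WT and 2217 in cKO. Gfap had 536 to 663 TPM in WT, and 26.8, 23.6 and 682 in cKO replicates 1 to 3. The summed neuron markers were 5541 to 6187 TPM in WT and 9309 to 10830 in cKO. Of the 10 neuron markers 1, Neurod2, was called higher, at 0 in WT and 852 to 1167 TPM in cKO. It passed the low-count filter through cKO alone. Of the 10, 2 had log2 values below 0. Endothelial markers summed to 23.3 to 54.9 and 8.36 to 10.6 TPM, and microglial markers to 20.5 to 252 and 15.1 to 138 TPM. For Mettl14, the targeted gene, the WT libraries held 11, 8 and 5 counts and the cKO libraries 2, 7 and 2, too few to show its loss. Xist was counted in the cKO libraries alone and Y-linked Eif2s3y, Ddx3y, Uty and Kdm5d in the WT libraries alone, so genotype and sex cannot be told apart. In these bulk samples fewer cells of a type and less RNA per cell cannot be told apart either. Both replicate 2 libraries had the shortest mean fragments, 304.3 and 292.7 bases against 332.4 to 350.5 in the others.

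Promoter sequences from RefSeq on GRCm38, the assembly of mm10, were at hand for 27 of the 34 genes. The 5 shown, picked after their values were seen, are of Hmgcs1, the cholesterol gene with the highest mean TPM in each genotype, and of Idi1, Insig1, Sc5d and Elovl5, which stood highest in both replicate 2 libraries. Fdps stood highest there too, but no promoter sequence was at hand for it. None was at hand for Scd1, Scd2, Fads1, Sqle, Fdft1 and Fa2h either. Each sequence shown is the stretch of 250 bases before the transcript start, 5′ to 3′ on the gene's strand, with motif matches in capitals. The positions are chr13:119690101-119690350 (plus strand), chr13:8885356-8885605 (plus), chr5:28071162-28071411 (plus), chr9:42264301-42264550 (minus) and chr9:77917115-77917364 (plus).
Hmgcs1: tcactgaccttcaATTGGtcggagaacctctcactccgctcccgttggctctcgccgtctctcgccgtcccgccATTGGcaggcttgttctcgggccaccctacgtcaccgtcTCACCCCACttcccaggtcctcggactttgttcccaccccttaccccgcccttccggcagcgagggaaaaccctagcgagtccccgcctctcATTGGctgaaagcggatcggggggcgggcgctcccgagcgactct
Idi1: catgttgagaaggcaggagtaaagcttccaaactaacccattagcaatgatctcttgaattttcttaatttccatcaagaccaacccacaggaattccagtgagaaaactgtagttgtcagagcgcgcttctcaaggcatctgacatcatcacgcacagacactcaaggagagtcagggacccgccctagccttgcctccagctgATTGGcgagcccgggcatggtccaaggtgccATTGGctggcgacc
Insig1: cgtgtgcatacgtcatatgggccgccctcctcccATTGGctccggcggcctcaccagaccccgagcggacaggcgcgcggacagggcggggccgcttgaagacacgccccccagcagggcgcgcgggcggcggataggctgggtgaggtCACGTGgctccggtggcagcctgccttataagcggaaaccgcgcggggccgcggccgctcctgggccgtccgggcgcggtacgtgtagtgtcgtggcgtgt
Sc5d: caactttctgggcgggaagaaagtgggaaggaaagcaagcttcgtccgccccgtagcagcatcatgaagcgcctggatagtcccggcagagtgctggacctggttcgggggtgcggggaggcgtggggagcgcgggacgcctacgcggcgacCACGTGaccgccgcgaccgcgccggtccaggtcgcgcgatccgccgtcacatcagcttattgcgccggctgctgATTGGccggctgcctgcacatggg
Elovl5: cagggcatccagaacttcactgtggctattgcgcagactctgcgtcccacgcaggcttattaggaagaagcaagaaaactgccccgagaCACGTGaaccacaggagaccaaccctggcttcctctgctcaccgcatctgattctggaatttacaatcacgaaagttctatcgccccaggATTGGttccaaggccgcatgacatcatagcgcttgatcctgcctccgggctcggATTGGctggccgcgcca
Capitals mark the CCAAT box (CCAAT, or ATTGG on the other strand), the E-box CACGTG and a sterol response element spelled TCACNCCAC, all searched on both strands. The motifs do not overlap one another in the stretches shown. A CCAAT box, the site of the factor NF-Y, was in the window of 21 of the 27 genes (77.8%), and of 37.5% of the 27025 genes with a window. The E-box, which SREBPs can bind, was in 5 of the 27 (18.5%) and in 6.86% of all genes. The 5 were Insig1, Sc5d, Elovl5, Dhcr7 and Hsd17b7. Dhcr7 and Hsd17b7 did not stand highest in both replicate 2 libraries, and Idi1, which did, had no E-box. The sterol response element was in 1, Hmgcs1, where it begins 137 bases before the start, and in 1.22% of all genes. These are matches of letters and not measured sites.

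Between the genotypes no gene of the 34 passed the test. With edgeR's quasi-likelihood test and a Benjamini-Hochberg adjusted p below 0.05, 0 of the 20 tested members were called, against 0.912% of all 5918 tested genes (0.49% higher and 0.422% lower). At an unadjusted p below 0.05 there were 7 (35%), against 12.6% of all genes tested (7.16% higher and 5.41% lower). Of these 7, Nsdhl and Acat2 had higher and Scd2, Fads2, Mvd, Tm7sf2 and Srebf1 lower values in cKO. The count of 7 fell when a library was left out. It was 3 of 25 tested members without WT replicate 1, cKO replicate 1 or WT replicate 3. Over all tested genes those fits had 628 of 6689, 591 of 6795 and 573 of 6700. It was 3 of 22 members (747 of 6416 genes) without cKO replicate 2 and 4 of 22 (834 of 6415) without WT replicate 2. Without cKO replicate 3 it was 5 of 25 (832 of 6662). With upper-quartile scaling it was 3 of 20 (589 of 5918 genes), and with limma-voom 4 of 20 (728 of 5918). DESeq2 called 1 of 29 members with a p-value, Nsdhl, against 191 higher and 109 lower of 12936 genes. By limma-voom 0 of 20 were called. The smallest adjusted p by edgeR was 0.2, for Nsdhl. Of the 20, 15 had a log2 fold change (cKO relative to WT) below 0, against 46.1% of all genes, and the median was −0.46 against 0.07. The groups did not overlap for 4 of the 20, against 19.8% of all genes: Nsdhl was higher (10.4% of all genes), and Scd2, Fads2 and Srebf1 were lower (9.45%).

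**Figure D1:**
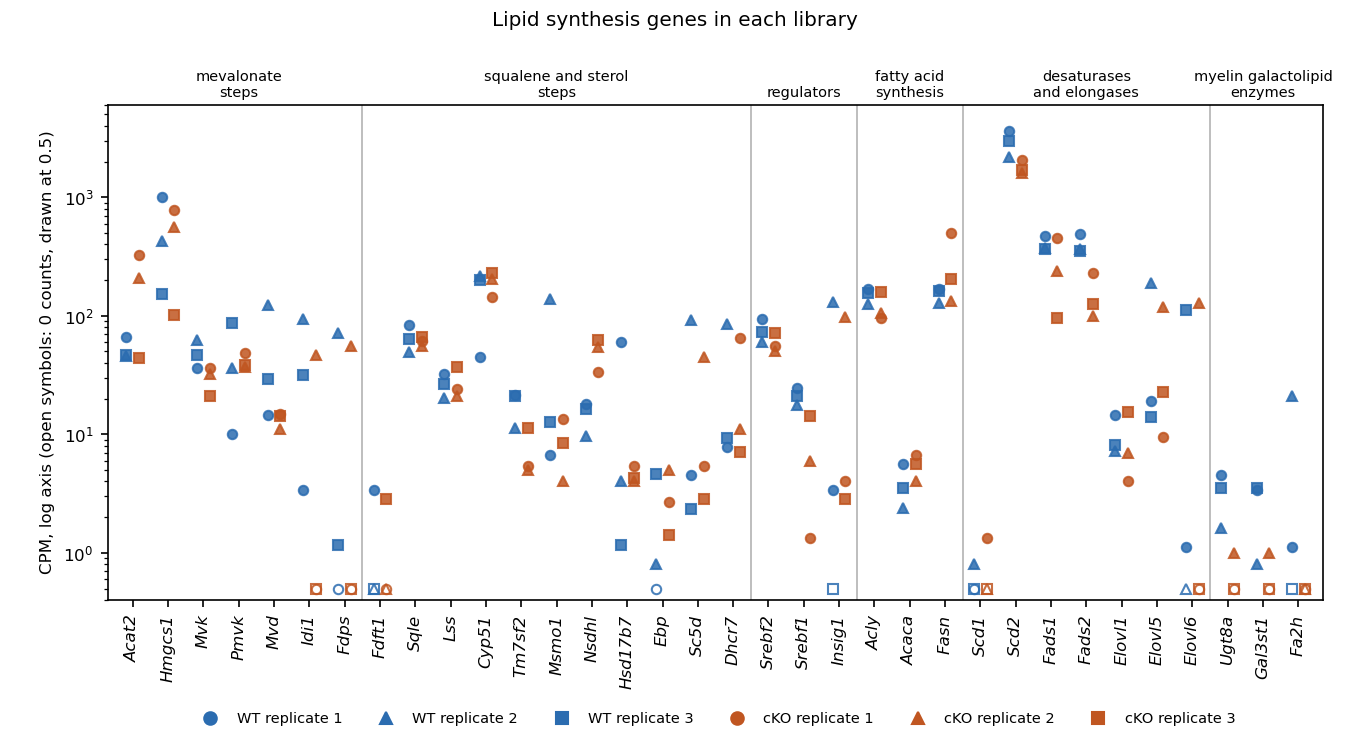
CPM of each of the 34 genes (horizontal axis, by role) in the 6 libraries on a log axis, with WT in blue and cKO in orange and a symbol for each replicate number. Scd2 stands highest at 1607 to 3601 CPM, and Fdps, Insig1, Sc5d and Elovl5 stand high in both replicate 2 libraries (triangles) alone.

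**Figure D2:**
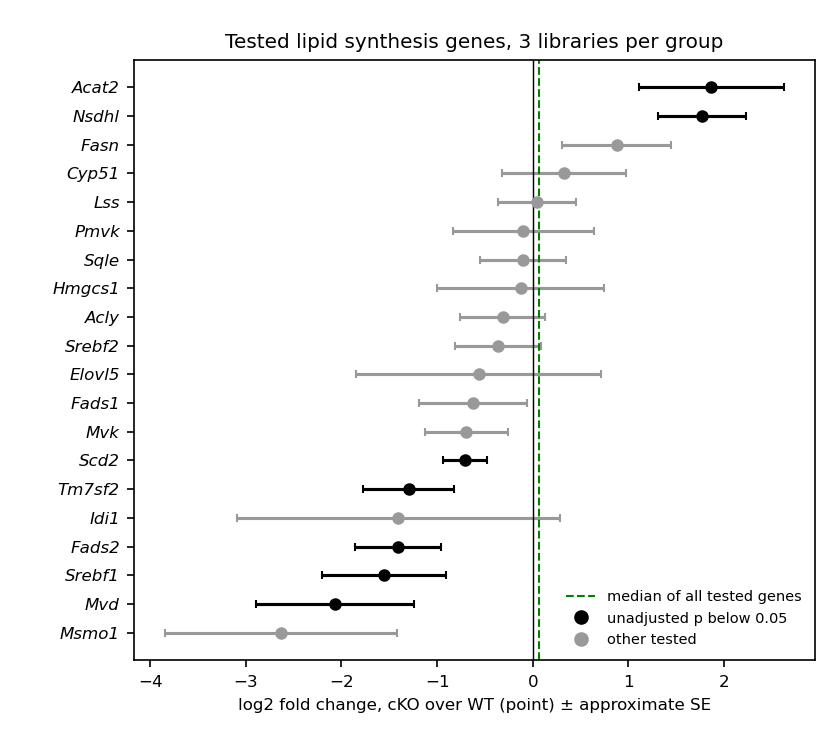
Log2 fold change of the 20 tested genes, cKO over WT, with an approximate SE as bars. The 7 black points have an unadjusted p below 0.05, and the dashed line is the median of all tested genes at 0.07.

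The most abundant member was a desaturase. Scd2, the stearoyl-CoA desaturase of brain that makes oleic acid, had the highest level of the 34 genes in every library and took 24.1% to 39.2% of their summed TPM. It stood at 3601, 2192 and 2968 CPM in WT replicates 1 to 3 and at 2076, 1607 and 1688 in cKO. Every cKO library lay below every WT library, the closest being 2076 and 2192. The log2 fold change was −0.71 (approximate SE 0.23), 1.63-fold lower, with an edgeR adjusted p of 0.267. Its neighbour Scd1, the main desaturase of liver and fat, had 1 count in WT replicate 2, 1 in cKO replicate 1 and 0 in the other 4 libraries.

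Fads2, the delta-6 desaturase that begins the making of long polyunsaturated fatty acids, had a similar order. It stood at 491, 367 and 355 CPM in WT and at 231, 100.1 and 124.5 in cKO, so that the groups did not overlap. Its log2 fold change was −1.41 (SE 0.45), 2.66-fold lower, with an edgeR adjusted p of 0.266. Fads1, the delta-5 desaturase of the same gene cluster on chromosome 19, stood at 471, 375 and 368 CPM in WT and 450.4, 239 and 96.2 in cKO. The groups of Fads1 overlapped through cKO replicate 1, and its log2 fold change was −0.63 (SE 0.57), or −1.34 without that library.

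Among the elongases, Elovl5, which lengthens polyunsaturated fatty acids, had 190 CPM in WT replicate 2 and 118 in cKO replicate 2 and 9.41 to 22.6 in the other 4. Elovl6, which lengthens palmitate, had 96 counts in WT replicate 3, 129 in cKO replicate 2 and 0 or 1 in each of the others. Elovl1, an enzyme of the very long saturated chains found in myelin, had 3 to 13 counts per library. Neither Elovl1 nor Elovl6 was tested.

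**Figure D3:**
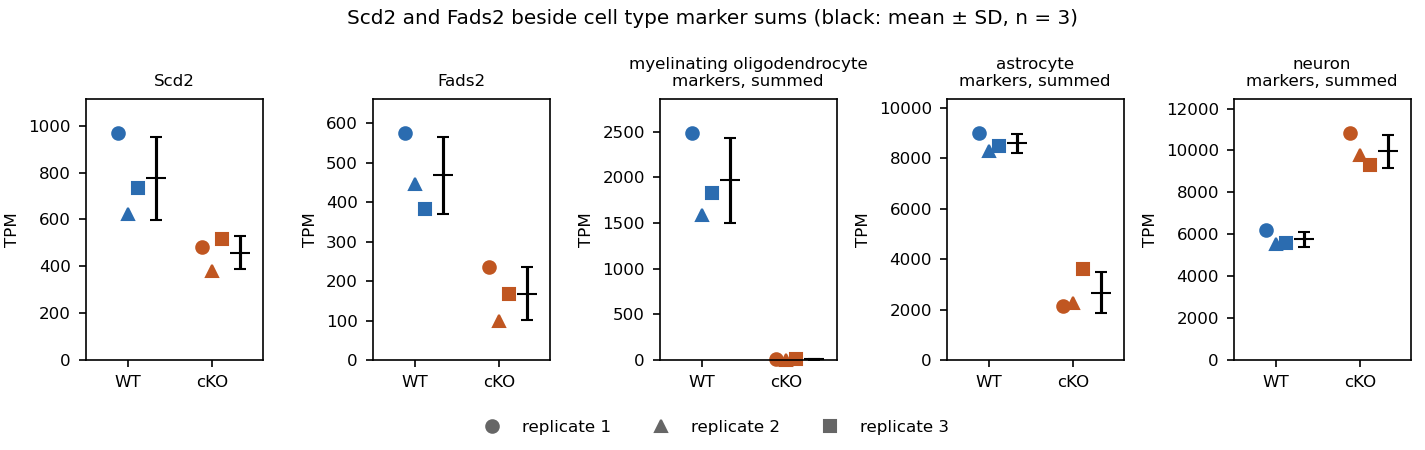
TPM of Scd2 and Fads2 and the summed TPM of markers of myelinating oligodendrocytes, astrocytes and neurons in each library, with the mean ± SD (n = 3) in black. Scd2 and Fads2 are lower in the 3 cKO libraries, as are both glial sums, and the neuronal sum is higher.

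Between the groups, the lower Scd2 and Fads2 values ran beside lower glial markers. Scd2 had 775 ± 177 TPM in WT and 459 ± 72.1 in cKO (SD, n = 3), and Fads2 468 ± 97.6 and 168 ± 67.6. In cKO replicates 1 to 3 Scd2 stood at 481, 378 and 517 TPM. The summed precursor markers there were 619, 411 and 2.85 TPM, and the summed astrocyte markers 2145, 2246 and 3621. Scd2 was thus highest in the cKO library where the precursor sum was lowest and the astrocyte sum highest. Of 7 tested astrocyte markers 2 were called lower (median −2.04 on the log2 scale), and the groups of Gfap and Gja1 overlapped. All 6 tested markers of myelinating oligodendrocytes were called lower. Of 3 tested precursor markers 1, Pdgfra, was called lower at −5.39, while Olig1 had a log2 value of −1.70 (edgeR adjusted p = 0.724) and Matn4 an adjusted p of 0.118. All 6 myelinating markers, Matn4 and the astrocyte marker Fgfr3 passed the low-count filter through WT alone. The astrocyte marker Gja1 passed it through its WT libraries too, with 1 cKO library over the limit. The part of these cell types in the Scd2 and Fads2 values was not tested.

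Transcripts of the myelin galactolipid enzymes were close to the counting limit in both genotypes, and none of the 3 was tested. Counts of Ugt8a, which joins galactose to ceramide to form galactosylceramide, were 4, 2 and 3 in WT and 0, 1 and 0 in cKO. Gal3st1, which turns that lipid into sulfatide, had 3, 1 and 3 counts and 0, 1 and 0. Fa2h, which hydroxylates the fatty acids of myelin galactolipids, was counted 1, 26 and 0 times in WT and 0 times in cKO. All but 1 of the Fa2h counts were thus in WT replicate 2. The groups of Ugt8a did not overlap, but its counts were at most 4, close to the counting limit given above. Counts this low cannot settle whether these 3 genes differed between the genotypes.

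Of the mevalonate steps, Acat2, which joins acetyl-CoA units in the cytosol, stood at 66.3, 45.8 and 46.6 CPM in WT and at 327, 209 and 43.9 in cKO. The cKO replicates 1 and 2 were the high libraries, and cKO replicate 3 lay below all WT libraries. The log2 fold change was 1.87 (SE 0.76) with an edgeR adjusted p of 0.383, 2.35 without cKO replicate 3 (adjusted p = 0.139) and 1.17 without cKO replicate 1 (adjusted p = 0.778). Acat2 shares sequence with its neighbour Acat3, and RSEM divides such reads by estimate. Counts of Acat3 were 47, 25 and 4 in WT and 13, 1 and 0 in cKO.

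Hmgcs1, the synthase that forms HMG-CoA, varied widely within each genotype, with 1002, 431 and 154 CPM in WT and 787, 563 and 102 in cKO. Replicate 3 was the lowest in both groups, and the log2 fold change was −0.13 (SE 0.87), which changed sign to 0.73 without WT replicate 1 and to 0.36 without cKO replicate 3. RSEM gave its transcript of 3518 bases 80.9%, 91.7% and 34.9% of the counts in WT and 83.2%, 74.9% and 57.4% in cKO, the rest going to one of 3577 bases. The share of the shorter transcript was thus lowest in both replicate 3 libraries too.

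Mvk and Pmvk add the first and the second phosphate to mevalonate. Mvk stood at 35.9 to 62.7 CPM in WT and 21.2 to 36.3 in cKO, and Pmvk at 10.1 to 86.1 and 37.03 to 48.4. Mvd, which removes the carboxyl group, stood at 14.6, 124 and 29.1 CPM in WT and at 14.8, 11.01 and 14.2 in cKO. The fitted log2 value was −2.07 (SE 0.83) with an edgeR adjusted p of 0.38, and −0.72 without WT replicate 2. Counts of Idi1, the isomerase of isopentenyl diphosphate, were 3, 117 and 27 in WT and 0, 47 and 0 in cKO. Fdps, which makes farnesyl diphosphate, had 89 counts in WT replicate 2, 56 in cKO replicate 2 and 0 or 1 in the other 4.

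Of the squalene and sterol steps, Nsdhl, a dehydrogenase that acts in the removal of the methyl groups at carbon 4, had the smallest p of the 34 genes. It stood at 17.97, 9.64 and 16.3 CPM in WT and at 33.6, 54.05 and 62.2 in cKO, with all cKO libraries above all WT libraries. The log2 fold change was 1.77 (SE 0.46), 3.41-fold higher, with an edgeR adjusted p of 0.2 and a DESeq2 adjusted p of 0.0303. Over all its alternatives the adjusted p ran from 0.0303 to 0.551, and DESeq2 was the single one below 0.05. Nsdhl lies on the X chromosome (72918521 to 72958528, GRCm38). Over 196 tested X-linked genes other than Xist the median log2 fold change was 0.65, and 29.6% were higher at an unadjusted p below 0.05, against 7.16% of all tested genes. The part of the X chromosome in the Nsdhl value was not tested. Ebp, the sterol isomerase and the other X-linked member, had 0 to 5 counts per library.

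Tm7sf2, a sterol C14 reductase, stood at 21.3, 11.2 and 20.9 CPM in WT and at 5.38, 5.0 and 11.3 in cKO. The groups met at WT replicate 2 and cKO replicate 3, and the log2 fold change was −1.30 (SE 0.48, edgeR adjusted p = 0.334). The largest size among the tested members was that of Msmo1, the C4 methyl oxidase, at −2.63 (SE 1.21, edgeR adjusted p = 0.441). WT replicate 2 had 174 counts of Msmo1 where the other 5 libraries had 4 to 11, and without it the value was −0.20.

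The other tested sterol enzymes had values closer to 0. Sqle, the epoxidase that commits squalene to sterols, stood at 84.2, 49.8 and 64.02 CPM in WT and 61.9, 56.05 and 66.5 in cKO, a log2 fold change of −0.10 (SE 0.44). Lss, which closes the rings to lanosterol, stood at 20.1 to 32.6 and 21.02 to 36.8 CPM, at 0.04 (SE 0.41). Cyp51, which removes the C14 methyl group, had 44.9 CPM in WT replicate 1 and 145 to 229 in the other 5 libraries. For these 3 the groups overlapped, and the SE leaves room for a change of either sign.

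The remaining sterol enzymes were not tested, as their counts were low or held by a few libraries. Dhcr7, the last reductase before cholesterol, had 106 counts in WT replicate 2, 48 in cKO replicate 1 and 5 to 11 in the others. Sc5d, the sterol desaturase, had 114 and 45 counts in the replicate 2 libraries of WT and cKO and 2 to 4 in the rest. Hsd17b7, the 3-keto reductase, had 53 counts in WT replicate 1 and 1 to 5 elsewhere. Fdft1, squalene synthase, had 0 to 3 counts in every library.

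Among the regulators, Srebf1, whose protein drives fatty acid genes most strongly, stood at 24.7, 17.7 and 20.9 CPM in WT and at 1.34, 6.0 and 14.2 in cKO. The groups did not overlap, and the log2 fold change was −1.56 (SE 0.65, edgeR adjusted p = 0.39). It passed the low-count filter through its WT libraries, so a difference of that sign was favoured by the filter. Without cKO replicate 1 the value was −1.10, and without cKO replicate 3 it was −2.42. Srebf2, whose protein drives cholesterol genes, stood at 94.3, 60.2 and 73.3 CPM in WT and 55.1, 50.05 and 72.1 in cKO, at −0.36 (SE 0.45). Insig1 counts were 3, 162 and 0 in WT and 3, 97 and 2 in cKO, and the gene was not tested.

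For the first steps of fatty acid synthesis the groups overlapped. Acly, which makes cytosolic acetyl-CoA from citrate, stood at 167, 125 and 155 CPM in WT and 95.5, 105 and 158 in cKO, at −0.32 (SE 0.45). Fasn, fatty acid synthase, stood at 167, 129 and 161 CPM in WT and 503, 133 and 204 in cKO. The high library was cKO replicate 1, and the log2 fold change was 0.88 (SE 0.57), or 0.11 without that library. Acaca, the acetyl-CoA carboxylase, had 3 to 5 counts in every library and was not tested.

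**Figure D4:**
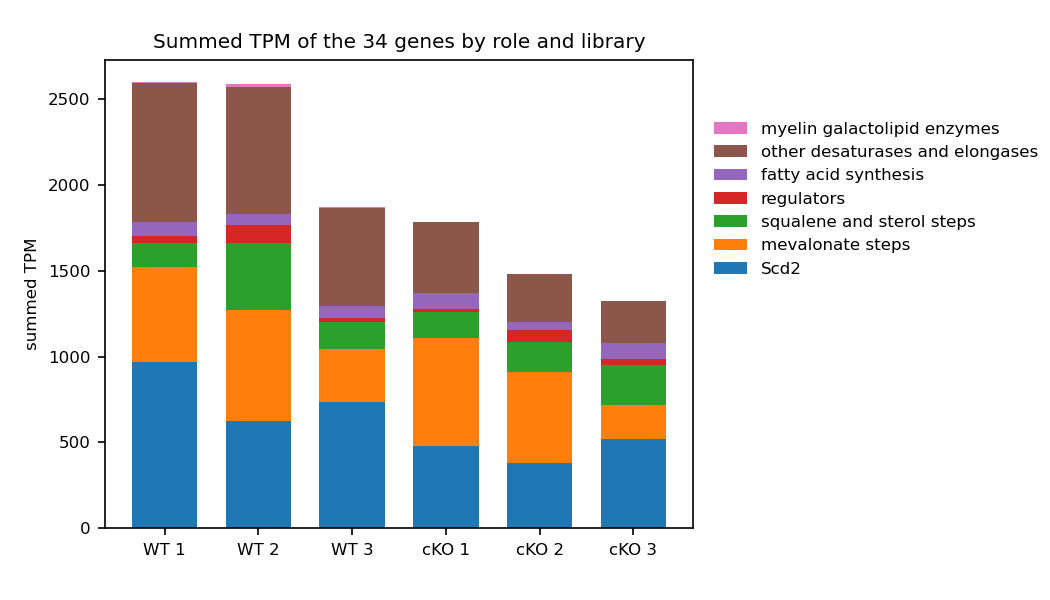
Summed TPM of the 34 genes in each library, stacked by role with Scd2 apart. The sum was 1873 to 2600 TPM in WT and 1326 to 1785 in cKO, and Scd2 with the other desaturases and elongases makes up most of the distance between the groups.

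In sum the 34 genes stood at 2600, 2587 and 1873 TPM in WT and 1785, 1484 and 1326 in cKO. The desaturases and elongases took 1305 to 1776 TPM of this in WT and 661 to 895 in cKO, so that the groups did not overlap. The mevalonate steps took 308 to 648 and 201 to 628 TPM, and the squalene and sterol steps 144 to 389 and 154 to 231 TPM, both with overlap. A sum follows its most abundant genes, here Scd2, Fads2, Fads1 and Hmgcs1, and was given no test.

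Libraries of one genotype differed for some of these genes by more than a mean shows. Within WT, the highest library was over 10 times the lowest for 10 of the 34 genes, with a lowest value under 1 count set to 1, and within cKO for 7. These counts take in the members with too few counts to be tested, and the share over all genes with a count was not worked out. Among the 20 tested members it was 3 in each genotype (15%), against 10.7% and 12% of all tested genes. The median ratio of highest to lowest library was smaller for the tested members. It was 1.72 in WT and 2.06 in cKO, against 2.03 and 2.32 for all tested genes. Idi1, Fdps, Sc5d, Insig1 and Elovl5 stood above the other 4 libraries in both replicate 2 libraries, which is 14.7% of the 34 genes, against 11.8% of all 13302 genes with a count. For 4 of these 5, all but Idi1, the gap was over 4 times, which is 11.8% of the 34 and 3.79% of all genes with a count. Among tested genes the order of the shares was the opposite for the pattern as such, with 2 of 20 members (10%), Idi1 and Elovl5, against 16% of all. A gap over 4 times was found for 1 of the 20 (5%) and 1.79% of all tested genes. The part of fragment length and depth in this pattern was not tested. The library kit keeps no record of strand, so reads from bases shared with a gene on the other strand cannot be told apart. The exons of 8 members, Hmgcs1, Fdft1, Idi1, Lss, Cyp51, Srebf1, Elovl1 and Elovl6, share such bases. The overlap with the gene sharing most ran from 34 of 6431 exonic bases (Elovl6) to 774 of 4227 (Fdft1). The share of all genes with such an overlap was not worked out.

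Genes around these steps were read from lists of 72 further lipid genes. Of these 37 were tested by edgeR, and 0 were called, against 0.912% of all 5918 tested genes. At an unadjusted p below 0.05 there was 1 (2.7%), against 12.6% of all genes tested. DESeq2 called 1 of the listed genes (Gltp), against 191 higher and 109 lower of 12936 genes. By limma-voom 0 were called, against 22 higher and 20 lower of 5918 genes. Values below 0 were found for 27 of the 37 (73%, against 46.1% of all genes), with a median of −0.55. Gltp, a carrier of glycolipids between membranes, was counted 14, 139 and 69 times in WT and 0, 4 and 1 times in cKO. Its groups did not overlap, with a log2 fold change of −5.07 (SE 1.11), an edgeR adjusted p of 0.144 and a DESeq2 adjusted p of 0.00228. It passed the low-count filter through WT alone, which favours a lower value in cKO. Over all alternatives its adjusted p ran from 0.00228 to 0.47. Cers2, which makes the ceramides with very long chains found in myelin, stood at 42.7, 126 and 161 CPM in WT and 38.99, 28.03 and 52.3 in cKO. The groups overlapped at a log2 fold change of −1.46 (SE 0.63).

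In the other lists the smallest p-values were also above the threshold. For further cholesterol synthesis and control (7 of 16 tested) they were those of Lbr, a sterol reductase of the nuclear envelope, at −1.85 (SE 0.91), and Erlin2 at −0.95 (SE 0.68). For storage, efflux and turnover (6 of 12 tested) they were those of Soat1, which esterifies cholesterol, at −2.06 (SE 0.89), and the exporter Abca1 at −0.96 (SE 0.55). Lbr and Soat1 rested on WT replicate 1, with −0.85 and −0.59 without it (both passed the low-count filter through WT), and Erlin2 on WT replicate 2, with −0.04 without it. For further fatty acid synthesis (11 of 23 tested) they were those of Hsd17b12, a reductase of the elongation cycle, at −0.95 (SE 0.55), and Acsl5, which activates fatty acids, at −0.69 (SE 0.47). Of these 6 genes Hsd17b12 alone had groups that did not overlap, at 299, 308 and 355 CPM in WT and 206, 228 and 62.2 in cKO.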

How the data were processed

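The files hold 6 libraries, 3 WT and 3 cKO, grouped and numbered by their titles. Per the submitters' processing notes, STAR 2.7.10b and RSEM 1.3.3 were used with build mm10. The annotation's release, how strand was set and any filter are not stated in them. The deposited expected counts, per the file headers, are estimated fragments per transcript. They were summed per gene and rounded. TPM values, also deposited and named per the file headers, account for transcript length and depth. They were summed per gene to compare levels between genes, and tested with limma on log2(TPM + 1) as an alternative. Mean fragment length is the deposited length less the effective length.

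edgeR 4.0.16 (quasi-likelihood, TMM, filterByExpr with a minimum count of 10) in R 4.3.3 compared cKO with WT over 5918 genes, with no covariate. A call needs a Benjamini-Hochberg adjusted p below 0.05, and adjusted p-values without a named tool are edgeR's. CPM uses the same scaling, on which 1 count equals 0.803 to 1.41 CPM. The SE was worked back from the F statistic (absolute log2 value divided by its root), so it restates the p-value. Alternatives used other scalings, filters and tests (DESeq2 1.42.0, limma 3.58.1), the replicate number or the replicate 2 libraries as a term, and left-out libraries. No pair of libraries in a group agreed within counting noise.

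The members, lists and tests were chosen with earlier results of these data known. Named genes are all 34 members and, of each further list, called genes and the 2 with the smallest p. Full statistics are for members with an unadjusted p below 0.05, and others were added after their values were seen, as were Acat3, the sex-linked genes and the promoters shown. Positions and promoters come from RefSeq tables and overlaps from GENCODE, both on GRCm38.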

Additional observations from a re-analysis of the deposited data

How the results depend on the processing

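Counts over all genes depended on the processing. The number of members called at an adjusted p below 0.05 changed under 1 alternative. The number at an unadjusted p below 0.05 ran from 3 to 7. The edgeR test called 29 higher and 25 lower genes. DESeq2 called 191 and 109 of 12936 genes with a p-value, where the main edgeR fit tested 5918. Without a filter edgeR called 12 and 10 of 13302, and with 1 CPM in 3 libraries 12 and 10 of 10524. It called 11 and 8 of 5918 with the replicate 2 libraries as a term. With both left out edgeR called 0 and 0 of 6011, with 740 at an unadjusted p below 0.05. Other tools were not run there. Leaving out 1 library at a time gave 0 to 28 higher and 0 to 14 lower genes, with 0 in either direction without WT replicate 3 or cKO replicate 1 (edgeR, where 573 and 591 genes had a p below 0.05 before adjustment). With the replicate number as a block 1 and 0 genes were called. Whether the numbers pair the libraries was not settled. Deviations from the group means correlated at 0.064, 0.46 and 0.16 for numbers 1 to 3, and at −0.31 to 0.20 for unlike numbers. The replicate 2 libraries correlated best with each other, but WT replicate 1 correlated best with cKO replicate 3. Such correlations cannot show whether libraries shared a batch. Members called were 1 higher with DESeq2 (Nsdhl, adjusted p = 0.0303) and 0 in either direction under the other 17 alternatives, the block included. Of the further lipid genes 1, Gltp, was called lower with upper-quartile scaling (adjusted p = 0.026) and 1, again Gltp, with DESeq2. The median over all genes was 0.07, and −0.22 with upper-quartile scaling, which took that of the members from −0.46 to −0.72. All 7 members with an unadjusted p below 0.05 kept their sign under the 18 alternatives run, with −1.04 to −0.53 for Scd2 and −1.88 to −1.18 for Fads2. The alternatives were run for the 20 tested members and 8 further genes. Of these 28, 7 changed sign, all with an adjusted p above 0.05 in each: Erlin2, at 0.11 with both replicate 2 libraries left out, and 6 members. Pmvk stood at 0.36 with limma-voom, 0.30 and 0.31 with limma on log2(TPM + 1) and log2(TPM + 0.5), and 0.28 with the replicate block. Lss stood at −0.22 with upper-quartile scaling and at −0.015 and −0.020 with limma on TPM at pseudocounts of 1 and 0.5. With 1 library left out the values ran from −0.77 to 0.73 for Hmgcs1, −0.57 to 0.82 for Pmvk, −0.27 to 0.11 for Sqle, −0.21 to 0.22 for Lss, −0.11 to 0.66 for Cyp51 and −2.22 to 1.6 for Elovl5. The cause was not tested. The filter on low counts left 14 members without a test, and without a filter all 34 were tested and 0 called by edgeR (6 at an unadjusted p below 0.05).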
